A study of Mus musculus with 8 samples.

Results

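The expression of 10 genes that separate large, myelinated sensory neurons from small ones was followed in back-labelled neurons of the mouse dorsal root ganglion (DRG), where the cell bodies of somatic sensory neurons lie. The genes were chosen by name: the neurofilament subunits Nefl, Nefm and Nefh, the related filaments Prph and Ina, the calcium-binding proteins Pvalb, Calb1 and Calb2, the secreted phosphoprotein Spp1 and the axonal adhesion protein Cntnap2. They are 10 of the 22609 gene symbols with read counts, and all 10 passed the expression filter of the test. Prph, a filament of small neurons, was included for contrast.

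The DRG came from C57BL/6J mice aged 8-12 weeks, normally developed and without further treatment, and the females were in estrous. The 2 groups were 4 female and 4 male libraries. In both sexes the lectin WGA coupled to Alexa Fluor 488 was injected into the skin of the hindpaw and the muscle of the thigh, so that neurons innervating either target took up the dye, and labelled neurons were sorted from lumbar DRG by fluorescence. Skin and muscle neurons were therefore pooled in each library, and muscle afferents, the class to which proprioceptors belong, were not sequenced apart from cutaneous ones. The study injected 4 mice of each sex and took 6 DRG per sample, the lumbar levels L3-L5 of both sides, which is the number that 1 mouse has. RNA was amplified by the SMART-seq2 protocol, which primes cDNA on poly(A) tails and does not keep strand. The study asked which genes differ between female and male sensory neurons.

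Large-diameter DRG neurons with thick myelin carry touch and muscle position. Their axons are filled with neurofilaments, polymers of a light (Nefl), medium (Nefm) and heavy (Nefh) subunit, and the long, heavily phosphorylated tails of Nefm and Nefh are linked to axon calibre. Peripherin (Prph) is a filament protein abundant in small unmyelinated and thinly myelinated neurons, and alpha-internexin (Ina) is a filament better known from developing neurons and from the brain. Proprioceptors, which report muscle length and tension, are classically marked by parvalbumin (Pvalb), a fast calcium buffer, and by osteopontin (Spp1). Calbindin (Calb1) and calretinin (Calb2) are calcium buffers of subsets of large mechanoreceptors, and Caspr2 (Cntnap2) holds potassium channels beside the paranodes of myelinated axons.

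The libraries held 4800071 to 7329597 gene reads, and 3 reads, taken as the smallest detectable amount, corresponded to 0.409 to 0.625 reads per 1e6 gene reads (CPM). Xist had 395 to 764 reads in female and 0 to 6 in male libraries, as the labels require. All 15 genes of a pan-neuronal list passed the filter, with a summed level of 16406 to 21712 CPM in females and 17287 to 17853 CPM in males. Female replicate 4 stood apart, with a chi-square per degree of freedom of 31.7 to 48.2 against the other females, where other pairs of the same sex gave 2.89 to 12.7. A list of 15 satellite glia and Schwann cell genes summed to 11560 to 14864 CPM in females and 5396 to 11146 CPM in males, with the lowest sum in male replicate 1. Of 9 genes of blood and endothelium only Pecam1 passed the filter (log2 fold change, female over male, -0.0035 ± 0.40 SE), and Cdh5, Hbb-b1 and Hba-a1 stayed at or under 3 reads in every library. These 9 genes summed to 20.7 CPM in female replicate 4 and to 3.54 to 7.84 CPM in the other 7 libraries.

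Sequences are shown for 4 members. Nefh is the only member with 50-base stretches, the length of a read, that occur more than once in the genome: 150 of its 3798 exonic 50-mers (3.95%), each repeated only within Nefh itself. The stretch below lies in exon 4, within the coding sequence, at chr11:4840592-4840712 of build NCBIM37 (also called mm9), read on the minus strand, and the capitals mark a 17-base unit that occurs 4 times. Reads that fall entirely inside such repeats have several alignments and may be missing from the Nefh count in every library.

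Nefh: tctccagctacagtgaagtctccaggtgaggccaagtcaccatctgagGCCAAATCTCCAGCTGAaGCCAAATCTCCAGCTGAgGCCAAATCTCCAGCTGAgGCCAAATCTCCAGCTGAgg

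Upstream sequence is shown for Pvalb and Spp1, which rose and fell together over the libraries as described further on, and for Prph, which did not follow them. Each run holds the 250 bases before the first listed transcription start in RefSeq, on build GRCm38.p6, at chr15:78206401-78206650 for Pvalb (minus strand), chr5:104434861-104435110 for Spp1 (plus strand) and chr15:99054924-99055173 for Prph (plus strand). RefSeq entries were at hand for 5 of the 10 members (Prph, Ina, Pvalb, Spp1 and Cntnap2).

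Pvalb: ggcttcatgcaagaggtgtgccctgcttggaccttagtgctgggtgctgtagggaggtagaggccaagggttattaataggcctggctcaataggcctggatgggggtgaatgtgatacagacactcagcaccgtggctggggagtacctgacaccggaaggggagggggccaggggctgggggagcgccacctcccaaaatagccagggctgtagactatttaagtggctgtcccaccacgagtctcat

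Spp1: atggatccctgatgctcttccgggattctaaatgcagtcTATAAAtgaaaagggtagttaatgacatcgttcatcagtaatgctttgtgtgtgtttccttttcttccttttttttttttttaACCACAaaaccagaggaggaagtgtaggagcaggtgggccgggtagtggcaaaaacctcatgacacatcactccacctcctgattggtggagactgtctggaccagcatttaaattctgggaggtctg

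Prph: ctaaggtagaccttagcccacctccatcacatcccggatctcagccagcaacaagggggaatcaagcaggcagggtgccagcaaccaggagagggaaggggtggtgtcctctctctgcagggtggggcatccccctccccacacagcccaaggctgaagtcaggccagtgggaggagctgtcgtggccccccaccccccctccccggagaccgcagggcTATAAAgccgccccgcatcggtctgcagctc

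Capitals mark the letters of a TATA box (TATAAA) and the core of the motif bound by RUNX factors (TGTGGT, written ACCACA where it lies on the other strand), both searched on both strands; the motifs do not overlap each other. Runx3 is a transcription factor of proprioceptors. The window of Prph held TATAAA with its first base 31 bases before the start, near which a TATA box lies. In the window of Spp1 the same letters began 211 bases before the start, far from that place, and the RUNX core 128 bases before it. The window of Pvalb held neither motif. Among 32851 windows of the same length, 14.0% held the RUNX core and 12.4% the letters TATAAA at any place, so single matches are common. The motifs were chosen after the levels were seen.

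Compared per exon length, as reads per kilobase and 1e6 gene reads (RPKM), the members covered a wide range of levels. Nefl (median 1830 RPKM over the 8 libraries, 1358 to 2556) and Prph (1768, 1399 to 2357) led and did not differ beyond their spread. Nefm followed at a median of 772 RPKM (509 to 1148), below every library of Nefl and Prph. Nefh, at 153 RPKM (70.1 to 416), stood below Nefm and above the other 6 members in each of the 8 libraries, although the ranges over libraries overlapped with those of Pvalb (63.3, 12.1 to 106) and Spp1 (40.3, 5.70 to 91.2). Pvalb exceeded Spp1 in all 8 libraries and Cntnap2 (32.7, 25.2 to 41.2) in 7, and Spp1 exceeded Cntnap2 in 5, so these neighbours overlapped. Ina (20.3, 14.4 to 24.4) was below Cntnap2 in every library. Calb1 had 8.82 RPKM (2.71 to 15.8) and Calb2 2.004 RPKM (0 to 10.5). Together the 10 genes took 1.09% of gene reads in male replicate 1 and 1.86% in female replicate 4, with the other libraries between, and Nefl was the third most abundant gene by mean CPM.

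**Figure D1:**
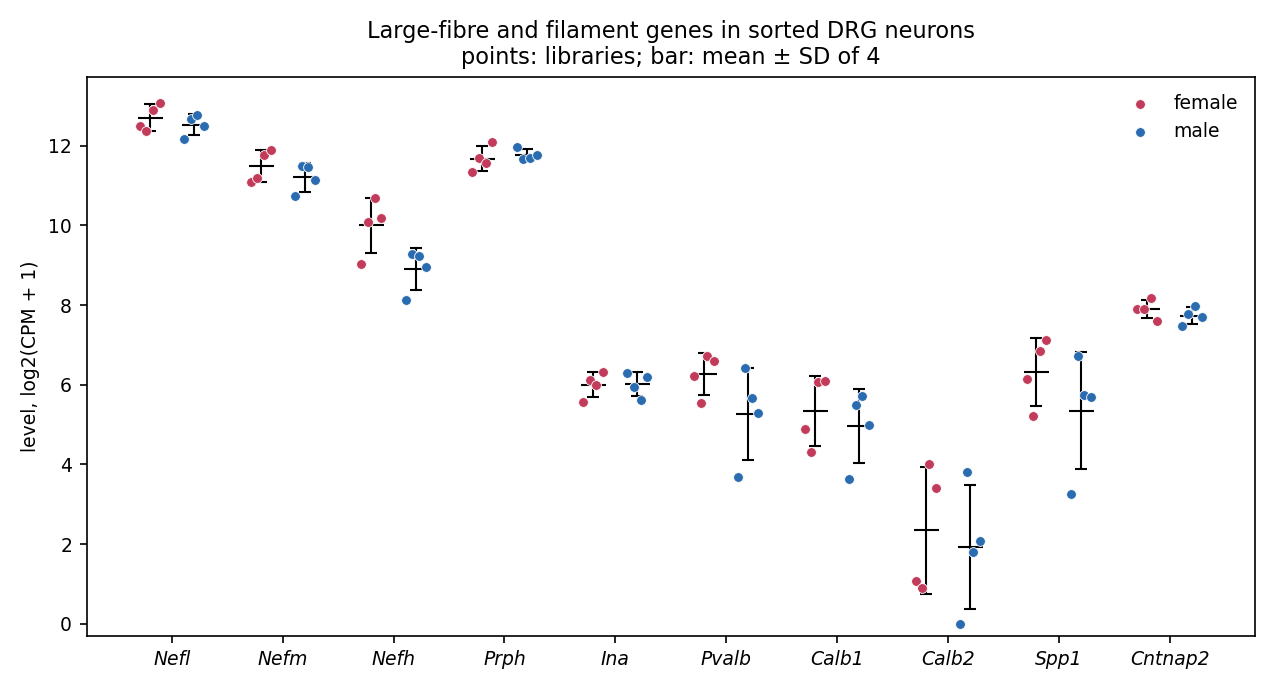
Level of each member on the log2(CPM + 1) scale (vertical axis) in the 4 female (red) and 4 male (blue) libraries; points are libraries, ordered by replicate within a sex, and bars give the mean ± SD. Nefh shows the widest gap between the sexes, with 3 of 4 females above every male, and male replicate 1 is the lowest point of 8 of the 10 genes. Of all tested genes 17.6% were lowest in male replicate 1 and 31.5% in female replicate 4.

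The neurofilament subunits were examined first. Nefh, the heavy subunit (chr11:4838757-4848067, minus strand, 4 exons, build NCBIM37 as for all gene positions here), was at 527, 1089.6, 1663 and 1155 CPM in female replicates 1 to 4. In male replicates 1 to 4 it was at 280.0, 625, 598 and 498 CPM. Replicates 2 to 4 of the females lay above every male, while female replicate 1 fell inside the male range. Female libraries averaged 1108 ± 465 CPM and male libraries 500.2 ± 157 CPM (SD, n = 4 each), and the fitted difference was 2.20-fold. The log2 fold change, female over male, was 1.14 ± 0.33 (SE), with an edgeR p-value of 0.00547 before and 0.578 after Benjamini-Hochberg adjustment over 12518 genes, so Nefh did not pass after adjustment.

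Nefh was the only member with an unadjusted edgeR p-value under 0.05, 1 of 10, where 7.10% of all tested genes had one, 4.62% with the higher level in females and 2.48% in males. After adjustment 0 of 10 members passed by edgeR, as by DESeq2 and limma-voom, and 0.0879% of all tested genes did. The sexes overlapped for all 10 members, against 5.52% of tested genes whose levels did not overlap. Fold changes were positive for 8 members and negative for 2, and their median log2 fold change was 0.33, against 0.01 over all tested genes. With a glial score as a covariate, described in the next paragraph, 3 were positive (Nefh, Prph and Ina) and 7 negative, with a median of -0.025. Without male replicate 1 and female replicate 4 together, 5 were positive and 5 negative, and when single libraries were left out the median was 0.083 (male replicate 1) to 0.50 (female replicate 2). Leaving out female replicate 1 brought the adjusted edgeR p-value of Nefh to 0.051 and its log2 fold change to 1.37. Leaving out both male replicate 1 and female replicate 4, a choice made after seeing the data, gave 0.93, with 0.0167 as its unadjusted and 0.418 as its adjusted edgeR p-value.

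Glial markers moved with Nefh only in part. The mean log2(CPM + 1) of the glial list, called the glial score, was highest in female replicate 3 (6.55) and lowest in male replicate 1 (5.45), the same libraries in which Nefh was highest and lowest. The summed CPM of the list was instead highest in female replicate 4 (14864), with 11710 in female replicate 3. Female replicate 1 had a score of 6.316, above every male, while its Nefh level of 527 CPM was below male replicates 2 and 3 (625 and 598 CPM). With this score as a covariate, the log2 fold change of Nefh was 0.52, with an unadjusted edgeR p-value of 0.148, and no member had an unadjusted p-value under 0.05. The score was 6.316 to 6.55 in females and 5.45 to 6.312 in males, without overlap. A model with both therefore cannot fully separate the score from sex, here and wherever this covariate is used. Of the 15 glial genes 14 passed the filter, 13 with a positive fold change and 5 with an unadjusted edgeR p-value under 0.05, all 5 higher in females. Among all tested genes 4.62% had such a p-value in that direction. Apoe, a lipid carrier abundant in satellite glia, was at 8940 ± 1302 CPM in females and 5818 ± 2007 CPM in males, and Prx, a protein of myelinating Schwann cells, at 12.2 ± 4.50 and 7.62 ± 1.65 CPM (SD, n = 4 each). Since reads come from pools of cells, a different share of large neurons, a different amount of RNA in each and a different admixture of other cells cannot be told apart.

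Nefm, the medium subunit (chr14:68737340-68742903, minus strand, 3 exons), had 2196, 2324, 3477 and 3828 CPM in females and 1698, 2878, 2821 and 2259 CPM in males. Nefl, the light subunit on which the polymer is built (chr14:68701920-68707152, plus strand, 4 exons), had 5731, 5301, 7653 and 8638 CPM in females and 4589.9, 6550.0, 6946 and 5820.2 CPM in males. For both genes the sexes overlapped, female replicates 3 and 4 were the highest libraries and male replicate 1 the lowest. The log2 fold changes were 0.28 ± 0.21 (SE) for Nefm and 0.18 ± 0.18 (SE) for Nefl, with adjusted edgeR p-values of 0.803 and 0.825. They were 0.13 and 0.048 without female replicate 4, 0.15 and 0.074 without male replicate 1, and -0.017 and -0.033 with the glial covariate. Nefl shares 1108 exonic bases with a longer transcript of Nefm on the other strand. The libraries do not keep strand, so these reads cannot be assigned. Reads counted as ambiguous over all genes, 18627 to 27749 per library, were fewer than the reads of Nefl alone, 30550 to 51277.

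Ratios within a library do not depend on its depth. The log2 ratio of Nefm to Nefl, from log2(CPM + 1) values, was -1.22 ± 0.11 in females and -1.32 ± 0.11 in males (SD, n = 4 each), so these subunits kept nearly the same proportion in every library, from -1.43 to -1.14. The heavy subunit varied more against the light one: the log2 ratio of Nefh to Nefl was -2.71 ± 0.58 in females and -3.62 ± 0.28 in males (SD, n = 4 each), and female replicate 1, at -3.44, lay within the male range. Against Prph, the filament of small neurons, Nefh had log2 ratios of -2.31, -1.60, -0.87 and -1.93 in females and -3.85, -2.37, -2.45 and -2.82 in males. Every female library lay above every male library in this ratio, by 0.07 between the nearest pair, and the means differed by 1.20. Other ratios to Prph overlapped between the sexes. Nefl to Prph was 0.68 to 1.33 in females and 0.18 to 1.08 in males, and Pvalb to Prph -6.14 to -4.86 and -8.30 to -5.24. No test was run on these ratios.

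**Figure D2:**
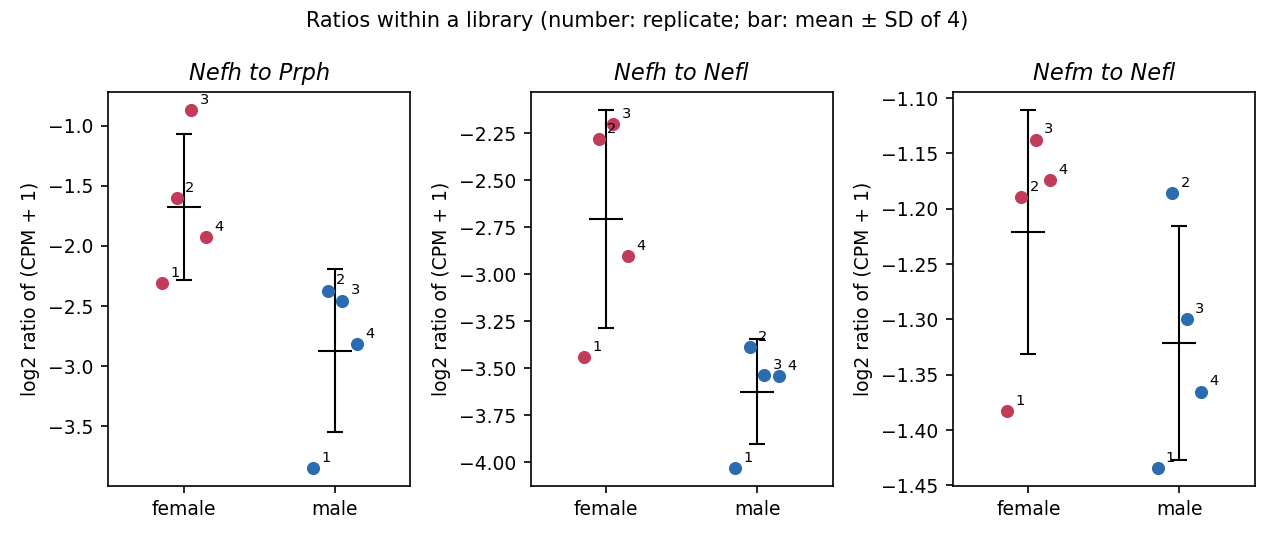
Log2 ratios of (CPM + 1) within each library (vertical axes, each with its own scale that does not start at 0) for Nefh to Prph, Nefh to Nefl and Nefm to Nefl, by sex; numbers are replicates and bars the mean ± SD. The Nefh to Prph ratio ranges from -2.31 to -0.87 in females and from -3.85 to -2.37 in males, while the Nefm to Nefl ratio stays within -1.43 to -1.14.

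Peripherin and alpha-internexin had another order over the libraries. Prph (chr15:98885605-98889409, plus strand, 8 exons) had 2609, 3314, 3034 and 4395 CPM in females and 4042, 3240.0, 3282 and 3518 CPM in males. Male replicate 1, the lowest library for the other members except Ina, was the second highest for Prph, after female replicate 4. Ina (chr19:47089188-47099817, plus strand, 3 exons) had 46.6, 68.7, 62.9 and 79.2 CPM in females and 77.8, 60.9, 47.9 and 72.2 CPM in males, again with female replicate 4 and male replicate 1 on top. The log2 fold changes were -0.09 ± 0.15 (SE) for Prph and -0.02 ± 0.19 (SE) for Ina, with adjusted edgeR p-values of 0.895 and 0.983. Without female replicate 4 Prph was at -0.25, with an unadjusted edgeR p-value of 0.0387 (0.406 adjusted), and without female replicate 1 at 0.0097. Ina ranged from -0.15 to 0.11 when single libraries were left out. Ina shares 456 exonic bases with Nt5c2 on the other strand, so part of its count is uncertain.

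Pvalb and Spp1, the proprioceptor markers, had wide ranges within each sex. Pvalb (chr15:78021544-78034667, minus strand, 4 exons) had 73.7, 46.0, 104 and 95.3 CPM in females and 11.9, 84.7, 50.03 and 38.3 CPM in males. Male replicate 1 was lowest, from 87 reads, and the highest library exceeded it 8.74-fold. Spp1 (chr5:104865211-104870062, plus strand, 6 exons) had 69.2, 35.9, 114 and 137 CPM in females and 8.60, 104, 52.2 and 50.6 CPM in males, a 15.99-fold range with male replicate 1 again lowest. In both genes male replicate 2 was the highest male, below female replicates 3 and 4 and above the other females. The log2 fold changes were 0.78 ± 0.46 (SE) for Pvalb and 0.71 ± 0.58 (SE) for Spp1, and neither passed, with adjusted edgeR p-values of 0.758 and 0.804. Single libraries moved both values: without male replicate 1 they were 0.46 and 0.35, and without male replicate 2 they were 1.24 and 1.25, with an unadjusted edgeR p-value of 0.018 for Pvalb. Without female replicate 4 Spp1 was at 0.42, and without male replicate 1 and female replicate 4 together Pvalb was at 0.35 and Spp1 at 0.06. With the glial covariate both turned negative, to -0.018 for Pvalb and -0.17 for Spp1.

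Spp1 is also made by macrophages, and markers of these cells were low. Of 13 macrophage genes 4 passed the filter, and 3 of them (H2-Ab1, Cd74 and Lyz2) had an unadjusted edgeR p-value under 0.05, all higher in females, against 4.62% of all tested genes. With the glial covariate the unadjusted edgeR p-values of the 3 genes were 0.151, 0.375 and 0.140. Their log2 fold changes went from 1.74 to 0.88, from 1.59 to 0.48 and from 1.49 to 1.38. Lyz2 had an unadjusted p-value under 0.05 in 12 of 20 alternatives, and its log2 fold change was 0.56 without female replicate 4 (unadjusted edgeR p-value 0.273). The list summed to 11.1 to 32.3 CPM in females and 5.59 to 12.9 CPM in males, and Ptprc, which encodes the pan-leukocyte protein CD45, was at or under 3 reads in every library. Over replicates 1 to 4 the macrophage sum was 11.1, 29.3, 32.3 and 29.5 CPM in females and 5.59, 12.8, 12.9 and 11.7 CPM in males. Male replicate 1 was lowest and female replicates 3 and 4 were the highest for both this sum and Spp1, while female replicate 2, at 29.3 CPM, was low in Spp1 at 35.9 CPM. The part of macrophages in the Spp1 level was not tested.

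**Figure D3:**
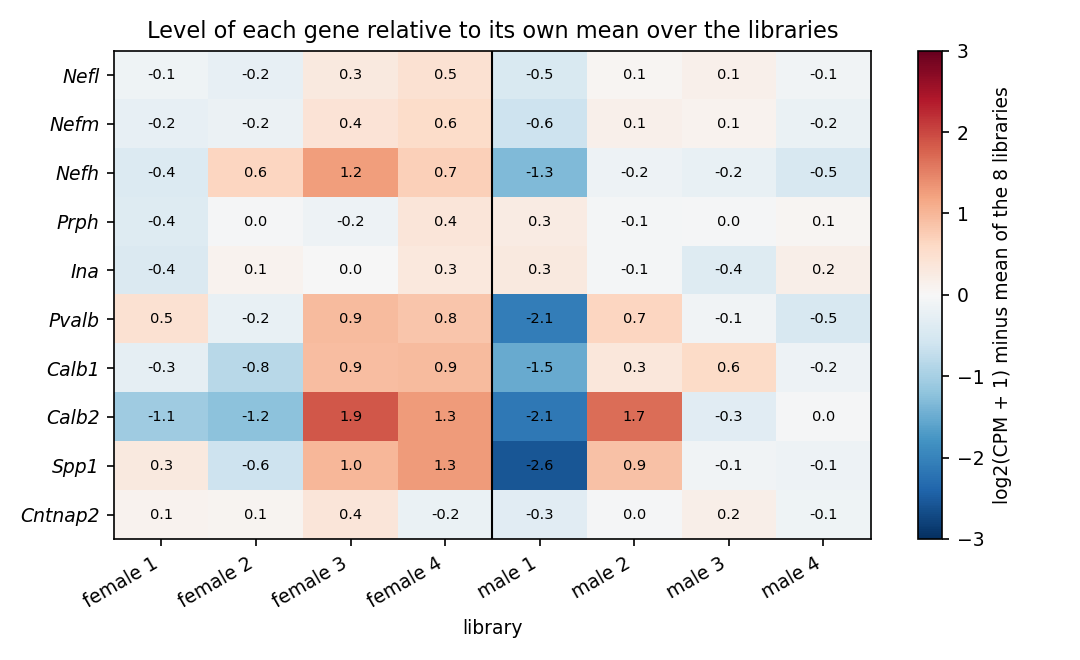
Deviation of each member (rows) in each library (columns) from its own mean over the 8 libraries, on the log2(CPM + 1) scale; red is above and blue below the mean, and a line divides the sexes. Male replicate 1 is below the mean for every gene but Prph and Ina, and Nefh, Pvalb, Calb1, Calb2 and Spp1 carry the largest deviations.

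Calb1 (chr4:15808411-15835211, plus strand, 11 exons) had 28.5, 18.9, 65.8 and 66.9 CPM in females and 11.5, 43.7, 51.5 and 30.8 CPM in males. Its order over the libraries was exactly that of Nefl. Calb2 (chr8:112666439-112692106, minus strand, 11 exons) was the rarest member, with 8, 5, 72 and 57 reads in females and 0, 87, 15 and 22 reads in males. In male replicate 1, 0 reads allow a level of up to 0.409 CPM. The SE of the Calb2 log2 fold change, 0.46 ± 1.00, was larger than the estimate, so a sex difference of either sign could not be told from the spread between libraries. For Calb1 the log2 fold change was 0.38 ± 0.47 (SE), with an adjusted edgeR p-value of 0.860. Without male replicate 1 the values were 0.09 for Calb1 and 0.03 for Calb2, and without female replicate 4 they were 0.12 and 0.19. Calb2 was at -0.32 without female replicate 3 and at 1.76 without male replicate 2. With the glial covariate Calb1 was at -0.33 and Calb2 at -1.17.

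Cntnap2 spans chr6:45010060-47251368 (plus strand) with 24 exons. Its levels of 239.9, 238, 287 and 194 CPM in females and 176, 219, 253 and 206 CPM in males were the least variable of the 10 members, with a coefficient of variation of 15.7% over the 8 libraries, against 60.8% for Spp1, 56.8% for Nefh and 105% for Calb2. The log2 fold change was 0.16 ± 0.15 (SE), with an adjusted edgeR p-value of 0.820. It was 0.043 without female replicate 3, 0.24 without female replicate 4 and -0.090 with the glial covariate.

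Some of the members also varied together over the libraries. Of the 45 pairs among the 10 members, 17 passed an adjusted p-value of 0.05 for Pearson's r on log2(CPM + 1), by an exact two-sided permutation test over the 40320 pairings of 8 libraries with Benjamini-Hochberg adjustment over the 45 pairs, and 14 passed for Spearman's rho. Of the 17 pairs, 16 lie among Nefh, Nefm, Nefl, Pvalb, Spp1, Calb1 and Calb2, a grouping seen in the values and not fixed beforehand, and the remaining pair was Prph and Ina. Over the 45 pairs r ran from -0.748 to 0.977, with a median of 0.615. The share of passing pairs among all genes was not computed, so these counts do not set the members apart from other genes. Reads per library and the admixture of other cells are shared by all points, and the labels give no batch within which to repeat the correlations.

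Pvalb and Spp1 had r = 0.976 (exact permutation p-value 0.000496, adjusted 0.00744) and rho = 0.952 (exact permutation p-value 0.00114, adjusted 0.0257). The correlation was 0.981 after subtracting the mean of each sex, and 0.903 without female replicate 3 and male replicate 1, the libraries farthest from the median of Pvalb. For Nefm and Nefl r was 0.977 (exact permutation p-value 0.000372, adjusted 0.00744) and rho 0.905 (0.00456, adjusted 0.0407), and r was 0.934 without female replicate 4 and male replicate 1. For Nefl and Calb1 r was 0.971 (exact permutation p-value 9.92e-05, adjusted 0.00446) and rho 1.0 (4.96e-05, the smallest value the permutations can give, adjusted 0.00223), and r was 0.989 without those 2 libraries. Each of these 3 relations therefore held without its extreme libraries.

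Nefh was more loosely tied. Its r with Nefl was 0.703 (exact permutation p-value 0.0522, adjusted 0.112), with rho 0.690 (0.0694, adjusted 0.136). Leaving out female replicate 3 and male replicate 1 brought r with Nefl to 0.355, with Pvalb from 0.766 to 0.290 and with Spp1 from 0.709 to 0.176, so r of Nefh with these genes rests largely on those 2 libraries. By rank Nefh and Pvalb passed, with rho = 0.833 (exact permutation p-value 0.0154, adjusted 0.0494). Nefh and Nefm passed by both measures, with r = 0.810 (exact permutation p-value 0.0142, adjusted 0.0375) and rho = 0.881 (0.00724, adjusted 0.0407). Their r was 0.549 without those 2 libraries. Prph and Ina correlated with each other, with r = 0.818 (exact permutation p-value 0.0137, adjusted 0.0375) and rho = 0.905 (0.00456, adjusted 0.0407), and r was 0.608 without female replicates 1 and 4. Between Prph and Pvalb r was -0.371 (exact permutation p-value 0.359, adjusted 0.539) and rho -0.405 (0.327, adjusted 0.545). It reached -0.975 without female replicates 1 and 4, the extremes of Prph, so no single value describes this pair.

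**Figure D4:**
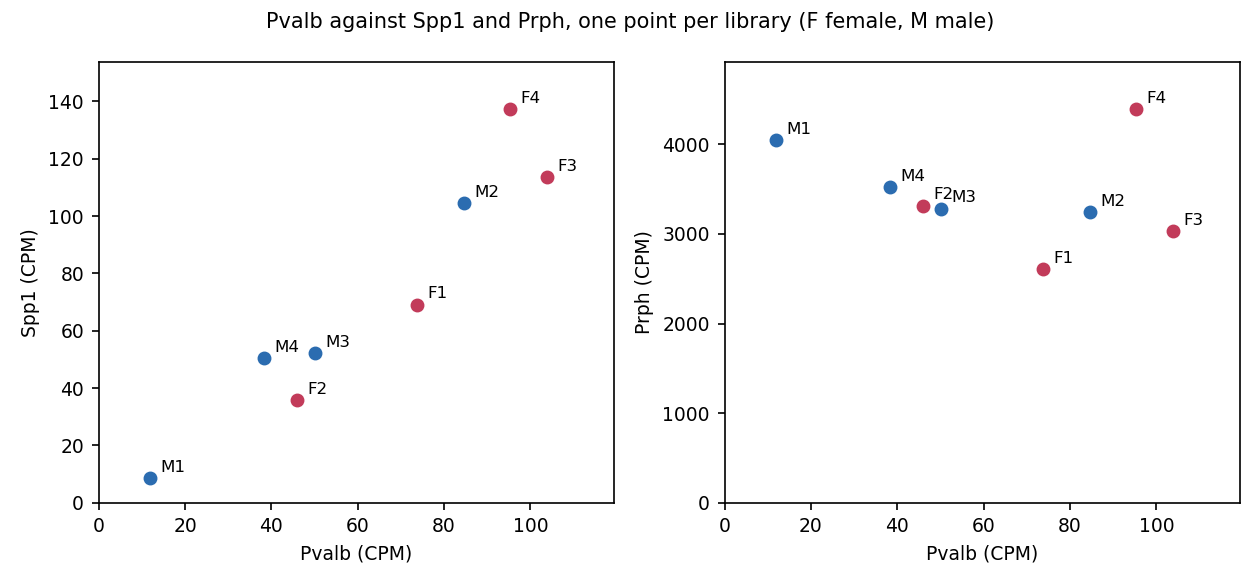
CPM of Spp1 (left) and of Prph (right) against CPM of Pvalb, 1 point per library (F female, M male, with the replicate number); all axes start at 0. Spp1 follows Pvalb from male replicate 1 (11.9 and 8.60 CPM) to female replicates 3 and 4, with r = 0.976, while Prph shows no single trend, with female replicates 1 and 4 apart from the other 6 libraries.

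Other genes with the most similar pattern were taken from the 9073 genes with a mean of at least 10 CPM, by Pearson's r on log2(CPM + 1) over the 8 libraries. The 5 most like Pvalb were Car2 (r = 0.984), Nsg1 (0.980), Cdo1 (0.977), Spp1 (0.976) and Sparcl1 (0.976). The 5 most like Spp1 were Nsg1 (0.996), Car2 (0.978), Pvalb (0.976), Ado (0.975) and Fam57b (0.973), so Pvalb and Spp1 each appeared among the 5 nearest genes of the other. Those most like Nefh were Cntfr (0.979), which encodes the receptor of ciliary neurotrophic factor, Ust (0.974), 6530402F18Rik (0.972), Sox10 (0.966) and Eif4g3 (0.965). Sox10, a transcription factor of glia, was at 73.1 ± 30.6 CPM in females and 23.3 ± 9.06 CPM in males (SD, n = 4 each). Its log2 fold change was 1.64 ± 0.38 (SE), and its adjusted p-value was 0.410 with edgeR, 0.00757 with DESeq2 and, with edgeR, 0.0194 with the replicate block and 0.0169 without female replicate 1. With so many genes compared over so few libraries, high values are reached by many genes, and these are descriptions only.

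Further markers were read from lists of known genes. Of 11 other proprioceptor genes 10 passed the filter, with a median log2 fold change of 0.44. Of these, 3 had an unadjusted edgeR p-value under 0.05, all higher in females, as had 4.62% of all tested genes in that direction. No set test was run on this list or the others. Kcnc1, a fast potassium channel, was at 23.5 ± 5.20 CPM in females and 13.2 ± 2.54 CPM in males (SD, n = 4 each), a log2 fold change of 0.81 ± 0.21 (SE), and its sexes did not overlap. Ntrk3, the receptor of neurotrophin-3 on which proprioceptors depend, had a log2 fold change of 0.56 ± 0.22 (SE) and Whrn, a scaffold protein, 0.61 ± 0.27 (SE). Adjusted edgeR p-values were 0.482, 0.647 and 0.690, so none passed. The unadjusted p-value stayed under 0.05 in 20 of 20 alternatives for Kcnc1, in 13 for Ntrk3 and in 6 for Whrn. With the glial covariate Ntrk3 was at 0.13 (unadjusted edgeR p-value 0.515), without male replicate 1 at 0.38 (0.060), and Whrn without female replicate 3 at 0.35 (0.189). Fxyd7, the most abundant gene of the list, was at 519 ± 113 and 451 ± 95.6 CPM. Runx3 ranged from 4.38 to 8.12 CPM in females and from 1.36 to 7.72 CPM in males, with male replicate 1 lowest. The summed level of the list was 610 to 876 CPM in females, 430 CPM in male replicate 1 and 638 to 712 CPM in the other males.

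Of 17 other genes of large myelinated neurons 16 passed the filter. An unadjusted edgeR p-value under 0.05 with the higher level in females was found for 3 of them, and for 4.62% of all tested genes. The 3 were Thy1 (log2 fold change 0.58 ± 0.19 SE), Necab2 (0.84 ± 0.28) and Slc17a7, a vesicular glutamate transporter (0.71 ± 0.31). With the glial covariate none of the 3 kept such a p-value (Thy1 0.17 with 0.223, Necab2 0.84 with 0.055 and Slc17a7 0.06 with 0.802), and over the alternatives Thy1 had an unadjusted p-value under 0.05 in 19 of 20, Necab2 in 18 and Slc17a7 in 12. Slc17a7 was at 0.53 without female replicate 3 (0.134) and at 0.46 without male replicate 1 (0.069), and Necab2 at 0.61 without male replicate 1 and female replicate 4 together (0.063). The median of the list was 0.24. Ret, its most abundant gene, was at -0.30 ± 0.24 (SE), and at -0.07 without female replicate 4, which had 401 CPM against 905 to 971 CPM in the other females. Female replicate 4, high in Nefl and Nefm, also had the lowest sum of this list, 1596 CPM against 1770 to 2398 CPM in the other libraries. Ret made up 401 CPM of that sum, and 1099 of the 1770 CPM in male replicate 1. The order of these sums therefore depends in large part on Ret and does not describe the list as a whole. Among 12 genes of the node of Ranvier and the regions beside it, 1 gene, Kcna2, a juxtaparanodal potassium channel, had an unadjusted edgeR p-value under 0.05 (log2 fold change 0.93 ± 0.22 SE, adjusted edgeR p-value 0.410), and the median was 0.05. The unadjusted p-value of Kcna2 was under 0.05 in 20 of 20 alternatives. The summed level of these 12 genes was 1773 CPM in female replicate 4 and 2691 to 3784 CPM in the other libraries. With DESeq2 the adjusted p-value of Kcna2 was 0.0292. Kcnab2 and Epb4.1l3, the most abundant of these, had log2 fold changes of 0.06 ± 0.22 and -0.17 ± 0.28 (SE). Without female replicate 4 Kcnab2 was at 0.27, with an unadjusted edgeR p-value of 0.00736, and without male replicate 1 and female replicate 4 together at 0.23 (0.0146). Among 9 other filament and linker genes none had an unadjusted edgeR p-value under 0.05, and the cytolinkers Plec and Dst were at -0.04 ± 0.09 and -0.08 ± 0.17 (SE).

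The contrasting list, 16 genes of small nociceptors, had a median log2 fold change of -0.23, with 12 negative and 4 positive values. An unadjusted edgeR p-value under 0.05 with the higher level in males was found for 3 of the 16, and for 2.48% of all tested genes. Calca and Calcb, which encode the peptide CGRP, were at -0.34 ± 0.13 and -0.30 ± 0.11 (SE), and Tac1, which encodes substance P, at -0.50 ± 0.21 (SE), each with an unadjusted edgeR p-value under 0.05. All 3 lost that without male replicate 1 (-0.24 for Calca, -0.24 for Calcb and -0.27 for Tac1, with 0.095, 0.066 and 0.153 as unadjusted edgeR p-values) and with the glial covariate (-0.10, -0.16 and -0.02). Sst, a peptide of itch neurons, went the other way, at 1.47 ± 0.34 (SE), with 13.6 ± 4.05 CPM in females and 4.84 ± 2.16 CPM in males (SD, n = 4 each), and kept an unadjusted p-value under 0.05 in 20 of 20 alternatives. None of the 16 passed after adjustment by edgeR (0.410 for Sst, the lowest), while Sst passed with DESeq2 (adjusted p-value 0.0206). Male replicate 1, lowest for the large-fibre members, had the highest sum of the small-nociceptor list, 13053 CPM, against 8221 to 10993 CPM in the other 7 libraries. Scn10a, a sodium channel of nociceptors, was at -0.16 ± 0.17 (SE). The 15 pan-neuronal genes had a median log2 fold change of 0.02, with 0.03 ± 0.13 (SE) for Tubb3 and 0.11 ± 0.11 (SE) for Uchl1, and none had an unadjusted edgeR p-value under 0.05.

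**Figure D5:**
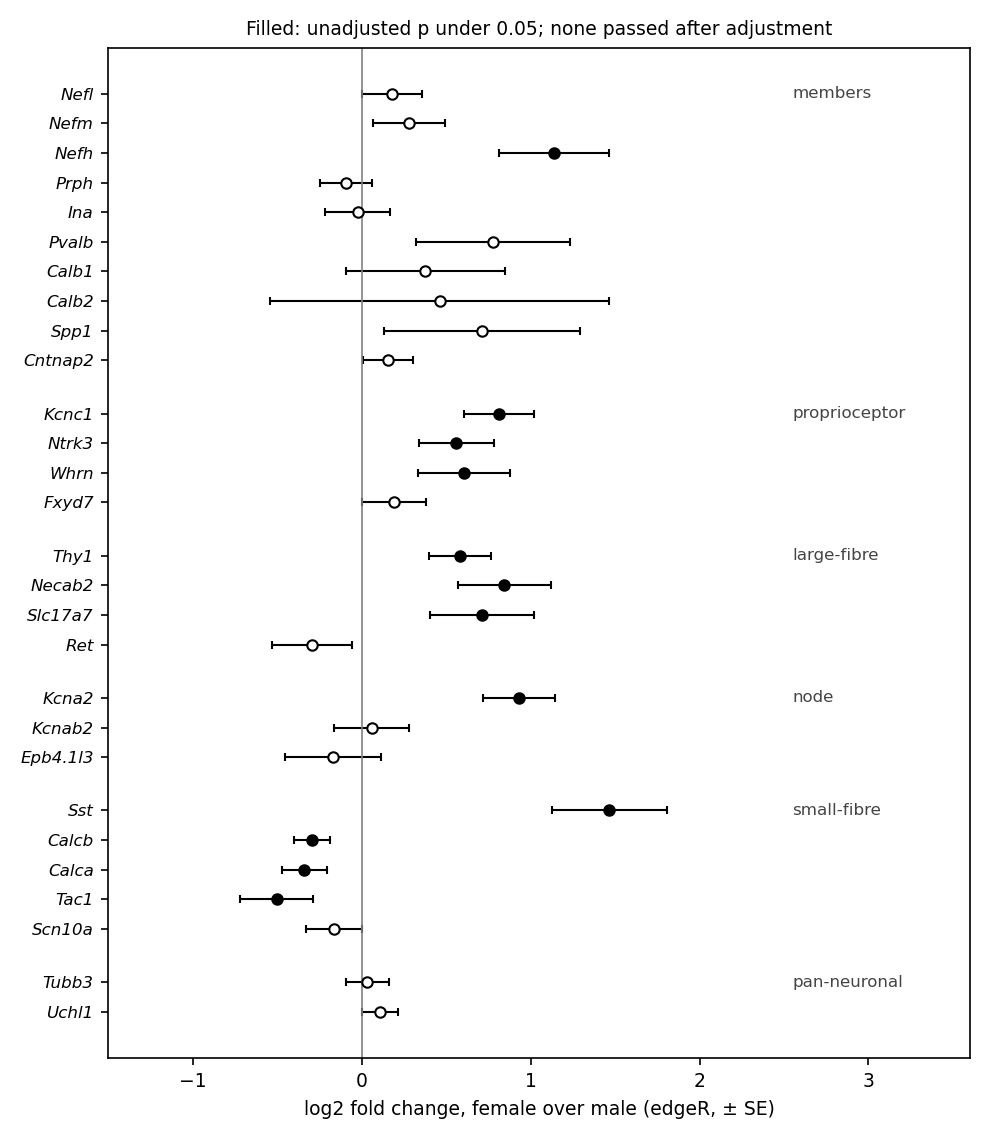
Log2 fold change, female over male, ± SE from edgeR (horizontal axis) for the 10 members and for the genes named from the lists of other neuronal genes other than filaments; filled points have an unadjusted p-value under 0.05. Nefh is the only filled member, at 1.14 ± 0.33, and no gene shown passed after adjustment by edgeR.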

How the data were processed

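Per the labels and the study's methods, the authors aligned single reads of 50 bases to mm9 with TopHat2 and counted them per gene with HTSeq, and the deposited values are these raw counts, without normalization; tool versions, annotation and strand option are not given in the sources used here. The counts have no molecular identifiers, so limits from read numbers cover counting error only. The 5 summary lines of each library were left out of library sizes.

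Counts of 4 female and 4 male libraries, grouped by their labels, were tested with edgeR 4.0.16 (quasi-likelihood, TMM, default expression filter) in R 4.3.3, with sex alone in the model and Benjamini-Hochberg adjustment over all 12518 tested genes; the SE came from the estimate and its F statistic. Per the study's methods each sex had 4 samples of 6 DRG, the number of L3-L5 ganglia in 1 mouse. No pair of libraries was a duplicate (chi-square per degree of freedom at least 2.89). Alternatives used DESeq2 1.42.0, limma 3.58.1 (voom), other scalings, filters and covariates, and left out each library in turn.

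Positions and exon lengths were read from GENCODE M1 (build NCBIM37), using the longest CCDS transcript of each member; 21627 symbols matched directly, 75 through a synonym and 907 not. CPM and RPKM were computed from the counts. The members and all lists were chosen with earlier results of these data known. The genes named were all members, from each list the genes with an unadjusted p-value under 0.05 (at most 6) and the 2 most abundant, and the 5 genes most correlated with Nefh, Pvalb and Spp1; Runx3, Ptprc and genes at the detection limit were named after their values were seen. A gene of the glial list that the rule names is not reported here. On simulated data for female against male, the edgeR step recovered 121 of 200 genes changed 2-fold with 3 false calls among 12397 genes, and 195 of 200 changed 4-fold with 10 false calls among 12413. Correlations were computed in Python 3.11.15 (pandas 2.3.3), and figures drawn with matplotlib 3.10.9.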

Additional observations from a re-analysis of the deposited data

How the results depend on the processing

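Nefh was higher in females in all 20 alternatives, with log2 fold changes of 0.52 to 1.37 and adjusted p-values of 0.051 (edgeR without female replicate 1) to 0.978 (glial covariate); 0 of 10 members passed after adjustment in any of them. The female minus male difference of the log2 ratio of Nefh to Prph was 0.87 to 1.41 when single libraries were left out. With the glial score as a covariate, edgeR called 5 genes after and 390 before adjustment, against 11 and 889, and 0 members before adjustment instead of 1. DESeq2 called 48 genes after adjustment. The numbers in the labels did not pair the libraries (same-numbered deviations correlated at 0.10, -0.12, 0.15 and 0.01, and 2 of 4 female libraries correlated best with their own number); with the replicate block edgeR called 6 genes, and the adjusted p-value of Nefh was 0.084. Leaving out each library gave 7 to 84 adjusted calls (84 without female replicate 1, 7 without male replicate 4), 587 to 1453 unadjusted calls (587 without male replicate 1, 1453 without female replicate 4) and 1 to 2 members (2 without female replicate 4 or male replicate 2). Of unadjusted calls 65.0% were higher in females, but 49.7% after removing the exon length trend, 49.9% without female replicate 4 and 50.5% with the glial covariate.

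Signs changed in 44 cases, 17 of them members, none with an unadjusted p-value under 0.05. With the glial covariate the log2 fold changes were -0.017 for Nefm, -0.0327 for Nefl, 0.080 for Prph, 0.22 for Ina, -0.018 for Pvalb, -0.17 for Spp1, -0.33 for Calb1, -1.17 for Calb2, -0.090 for Cntnap2, -0.097 for Fxyd7, -0.093 for Kcnab2 and 0.031 for Pmp22. The glial score did not overlap between the sexes and includes Pmp22, so these values do not separate glial admixture from sex. Without male 1 and female 4 together they were -0.056 for Nefl, -0.18 for Calb1, -0.27 for Calb2, -0.0578 for Fxyd7, 0.024 for Epb4.1l3, 0.10 for Dst, 0.039 for Scn10a and -0.11 for Tubb3. Kcnab2 was at -0.0162 with limma-voom, -0.011 with the replicate block and -0.046 with the GC trend removed. Tubb3 was at -0.00794 scaled to pan-neuronal genes, -0.0489 with the length trend removed and -0.0909 with the GC trend removed, Uchl1 at -0.0016 with the GC trend removed, Plec at 0.046 with the length trend removed, and Pecam1 at 0.00070 with DESeq2, 0.011 with library size alone and 0.0253 with the length trend removed. Leaving out single libraries gave -0.25 to 0.0097 for Prph, -0.15 to 0.11 for Ina, -0.32 to 1.76 for Calb2, -0.065 to 0.27 for Kcnab2, -0.38 to 0.081 for Epb4.1l3, -0.18 to 0.082 for Dst, -0.10 to 0.089 for Tubb3 and -0.29 to 0.23 for Pecam1. The causes were not tested. Calb2, with 0 to 87 reads per library, rests on the fewest reads of the members.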

Other observations

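Matrix genes of fibroblasts, a further cell type of the ganglion, were also present. Of 10 such genes 6 passed the filter, all 6 with positive fold changes and 4 with an unadjusted edgeR p-value under 0.05, and the list summed to 105.0 to 158 CPM in females and 46.0 to 89.7 CPM in males. Among all tested genes 4.62% had such a p-value with the higher level in females. Dcn, a small proteoglycan of connective tissue, was at 34.4 ± 0.905 CPM in females and 22.1 ± 2.78 CPM in males (SD, n = 4 each). Its log2 fold change was 0.62 ± 0.13 (SE), and its adjusted p-value was 0.326 with edgeR and 0.0121 with DESeq2. Bgn, another small proteoglycan, was at 22.1 ± 3.43 CPM in females and 12.03 ± 5.19 CPM in males (SD, n = 4 each), a log2 difference of 0.87 ± 0.31 (SE) with an adjusted edgeR p-value of 0.630. The sexes did not overlap for Dcn, Bgn or Lum. Col1a2, a chain of type I collagen, had a log2 fold change of 0.72 ± 0.27 (SE) and Lum, a proteoglycan of the same matrix, 0.72 ± 0.31 (SE). The unadjusted p-value was under 0.05 in 20 of 20 alternatives for Dcn, 19 for Bgn, 16 for Col1a2 and 11 for Lum, and with the glial covariate Bgn was at 0.23, Col1a2 at 0.37 and Lum at 0.20. Mbp, a myelin gene of Schwann cells, was at 226 ± 26.0 CPM in females and 163 ± 27.7 CPM in males (SD, n = 4 each), with an adjusted edgeR p-value of 0.630, while Pmp22, another myelin gene, had a log2 fold change of -0.10 ± 0.12 (SE), and -0.20 without female replicate 4 (unadjusted edgeR p-value 0.0389). The log2 fold change of Mbp was 0.46 (unadjusted edgeR p-value 0.00868), and 0.26 with the glial covariate (0.144). In the glial list Apoe had a log2 fold change of 0.61 ± 0.23 (SE) and Prx 0.67 ± 0.27 (SE), with adjusted edgeR p-values of 0.647 and 0.662. The unadjusted p-value was under 0.05 in 17 of 20 alternatives for Apoe and in 11 for Prx. Both lost that with the glial covariate, Apoe also without female replicate 4 (0.50 with 0.0587) and Prx without female replicate 2 (0.37 with 0.135). Apoe, Prx, Mbp and Pmp22 are themselves part of the glial score. Adjusting for it takes away part of their own difference by construction, so their values with this covariate show nothing further.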
